A study of Mus musculus with 6 samples.

Results

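Lasp1 and its relatives in the nebulin family were measured in the fundic gastric mucosa, the acid-secreting lining of the stomach body, of mice aged 3 months of the C57Bl/6Ncr strain. The members were every array probe annotated to Lasp1, Nebl, Neb or Nrap, by the platform's symbol or the current symbol of the same Entrez gene. They came to 4 genes of 19057 named on the array, read by 9 of its 45281 probes, 3 for Lasp1, 2 for Nebl, 1 for Neb and 3 for Nrap. Total RNA from 3 Lasp1 knockout samples and from 3 wild type samples was hybridised to Illumina arrays, to find how loss of Lasp1 alters mRNA levels in this tissue. The sources used here do not say how the Lasp1 allele was made, nor do they name an allele or treatment that both groups share. Whether the 3 samples of a group came from different mice is not stated either, and the p-values measure only how these 6 arrays scatter, which may be technical.

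Proteins of this family carry nebulin repeats, short modules that bind filamentous actin. Lasp1 joins a LIM domain, a zinc-binding protein interaction module, to nebulin repeats and an SH3 domain, and it sits at focal adhesions and at actin-rich membranes of epithelial cells, parietal cells included. Nebl encodes nebulette, a cardiac Z disc protein, and also a LIM-containing form known as LASP-2 that closely resembles Lasp1. Neb encodes nebulin, the giant protein that lies along the thin filaments of skeletal muscle. Nrap encodes N-RAP, a LIM protein of striated muscle found at myotendinous junctions, intercalated discs and forming myofibrils. The question for Nebl, Neb and Nrap was whether their mRNA differed where Lasp1 was deleted.

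The promoters show one way in which the members differ apart from their levels. The sequences below run 5′ to 3′ on the gene's strand, from 250 bases before to 50 bases after an annotated start (RefSeq, GRCm38.p6). Capitals mark CG dinucleotides, which are dense at the starts of widely expressed genes. Windows are shown for Lasp1 (chr11:97799315-97799614, + strand), for Nebl (chr2:17731085-17731384, - strand) and for Nrap (chr19:56389989-56390288, - strand). The Nebl window is the one farthest upstream among the Nebl windows available. The gene table extends both Nebl and Lasp1 farther upstream than the windows printed here. No window was available for Neb.
Lasp1: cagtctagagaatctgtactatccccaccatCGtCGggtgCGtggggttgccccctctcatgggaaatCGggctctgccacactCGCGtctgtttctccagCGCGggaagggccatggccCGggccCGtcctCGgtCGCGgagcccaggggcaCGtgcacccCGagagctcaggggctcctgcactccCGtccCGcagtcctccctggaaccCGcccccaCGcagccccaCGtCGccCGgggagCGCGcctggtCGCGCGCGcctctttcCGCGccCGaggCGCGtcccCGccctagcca
Nebl: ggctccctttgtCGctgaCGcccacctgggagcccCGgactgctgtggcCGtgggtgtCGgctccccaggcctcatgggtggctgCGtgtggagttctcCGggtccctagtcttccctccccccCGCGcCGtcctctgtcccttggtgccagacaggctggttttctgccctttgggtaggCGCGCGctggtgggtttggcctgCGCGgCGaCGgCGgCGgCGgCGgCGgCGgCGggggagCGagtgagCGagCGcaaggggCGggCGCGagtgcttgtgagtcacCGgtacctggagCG
Nrap: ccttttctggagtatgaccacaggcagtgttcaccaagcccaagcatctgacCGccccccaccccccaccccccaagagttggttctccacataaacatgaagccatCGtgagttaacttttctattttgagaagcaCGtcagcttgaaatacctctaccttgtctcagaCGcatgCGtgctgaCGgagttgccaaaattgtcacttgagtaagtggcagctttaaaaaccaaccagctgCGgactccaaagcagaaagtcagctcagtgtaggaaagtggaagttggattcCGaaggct

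The Lasp1 window held 34 CG dinucleotides at a GC content of 71.7%, and 7.73% of 32851 promoter windows of this length held as many or more. The Nebl window printed above held 32 CG dinucleotides at 72.0% GC, while the 3 other Nebl windows held 1, 1 and 5. The Nrap window held 8, close to the median of 7 over all windows. Among genes on the array, the brightest probe lay above background (defined below) on all 6 arrays for 69.1% of the 1884 genes whose richest window held at least as many CG dinucleotides as Lasp1. This share was 16.5% of the 5155 genes with no more than Nrap and 48.3% of all 15237 genes with a window. Lasp1 lay above background, like most genes of its promoter class. Nrap was around background, like most of its class, and Nebl was around background although 1 of its starts is CG-rich. Whether the CG count of a promoter bears on the level of these members was not tested. The letters CANNTG, the E-box that muscle transcription factors of the MyoD family can bind (N is any base, and the motif reads the same on both strands), occurred 1 time in the Lasp1 window, 1 time in the printed Nebl window and 3 times in the Nrap window. Of all windows, 72.3% held at least 1. GGGCGG, the GC box of Sp1 (both strands, its inner CG also counted above), occurred 2 times in the Lasp1 window and 1 time in each of the other 2, and 35.7% of all windows held it. These matches describe the letters only, and binding was not measured.

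Intensities are given as deposited, with the median probe of every array at 1000. No value came near 0, so a reading holds background as well as signal. All samples read as female (Xist between 55746 and 88070), so probes of Y-linked genes served as background: the brightest of 26 such probes read 1061 to 1212, depending on the array. The number of arrays limits the precision. Some arrays carried transcripts of other tissues, unevenly within each group. Summed over 8 pancreatic acinar genes, knockout replicate 3 read 387913, wild type replicate 3 read 4527651 and the other 4 arrays at most 226325. Summed over 10 squamous epithelium genes, knockout replicate 1 read 1201508, wild type replicate 2 read 676255 and the others at most 33555. The 9 smooth muscle genes summed to 301416 on knockout replicate 1 and to at most 132795 elsewhere. The titles also number the arrays 1 to 6, a number whose meaning the labels do not give. Knockout replicate 1 and wild type replicates 1 and 2 are numbered 1 to 3, and knockout replicates 2 and 3 and wild type replicate 3 are numbered 4 to 6.

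Lasp1 was the member with signal far above background, and it was lower on every knockout array than on any wild type array by both of its bright probes. Its brightest probe, ILMN_2879746, read 88521, 111002 and 89823 on knockout replicates 1 to 3, against 270957, 275068 and 177315 on wild type replicates 1 to 3. No knockout array reached the lowest wild type array, wild type replicate 3, and the knockout arrays lay within a coefficient of variation of 13.1%, against 22.9% in wild type. The mean was 96449 ± 12620 in knockout and 241114 ± 55289 in wild type mucosa (SD, n = 3 each), that is, 96.4 and 241 times the array median. On the knockout arrays too, this probe lay far above the Y-linked probes. The log2 difference, knockout minus wild type, was -1.30 (95% interval -1.79 to -0.81), so the knockout held 40.6% of the wild type level. In a bulk sample, fewer cells of a type and less RNA per cell cannot be told apart. Where each Lasp1 probe lies in the gene, and whether the deletion removes that stretch, is not stated in the sources used here, so these readings are no check of the deletion itself.

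The second bright probe, ILMN_2879745, read 6674, 8652 and 7881 on knockout replicates 1 to 3, against 31441, 30113 and 13074 on wild type replicates 1 to 3. Again the groups did not overlap, and wild type replicate 3 was much nearer to the knockout arrays than to the other wild type arrays. The log2 difference was -1.59 (95% interval -2.40 to -0.78), which left 33.3% of the wild type level. The third probe, ILMN_2596851, read 877, 1156 and 1021 on the knockout arrays, against 1483, 970 and 1114 on the wild type arrays. It exceeded the brightest Y-linked probe only on wild type replicate 1, and its groups overlapped (log2 difference of the readings -0.21, limma adjusted p = 0.994). All 3 Lasp1 probes are annotated to the same RefSeq transcript.

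**Figure D1:**
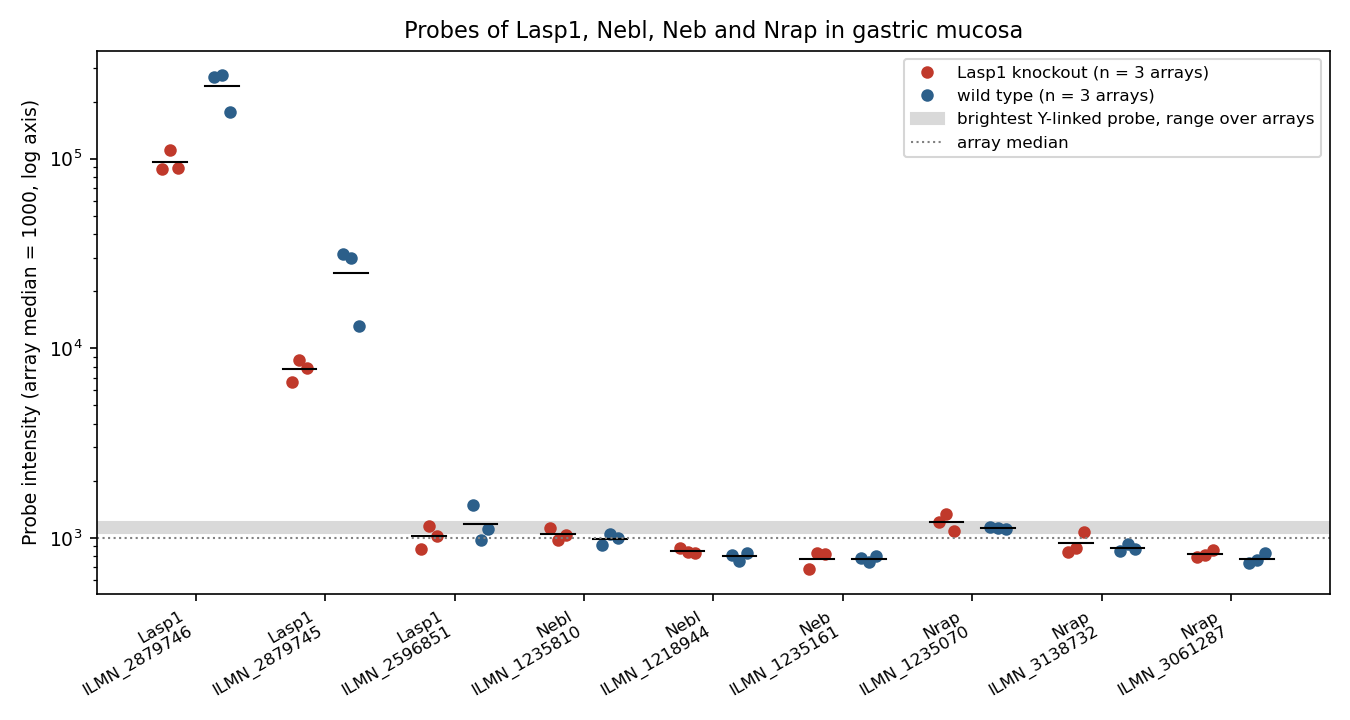
Intensity of each of the 9 member probes on the 3 knockout arrays (left of each pair) and the 3 wild type arrays (right), on a log axis. Black bars are group means, the grey band is the range of the brightest Y-linked probe over the arrays (1061 to 1212), and the dotted line is the array median of 1000. ILMN_2879746 and ILMN_2879745 lie above the band with separated groups, and the other 7 probes lie around or below it.

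None of the 5 member probes that passed the filter on dim probes was called by limma (adjusted p = 0.994 for each), where 0.00883% of the 22640 tested probes were called, both of those higher in the knockout. At an unadjusted limma p under 0.05, 24 probes (0.106%) were lower in the knockout, and the 2 bright Lasp1 probes were among them. By this p, ILMN_2879746 ranked 4 and ILMN_2879745 ranked 9 among all tested probes. The exact two-sided permutation p was 0.1 for each, the smallest that 3 against 3 arrays allow. Groups that did not overlap with the knockout lower were found for 2 of the 5 tested member probes, and for 1.02% of all tested probes (7.19% in either direction). In all, 51 tested probes had a log2 difference at or below that of ILMN_2879746, a bound that both bright Lasp1 probes meet by construction, and 4 of the 51 had separated groups. The other 2 were probes of Klk1b27, a kallikrein gene, and of Zg16, a lectin of secretory granules that also belongs to the pancreatic list (both singled out after their values were seen). Zg16 read 38479, 17105 and 9651 on the knockout arrays, against 86169, 124704 and 560890 on the wild type arrays. Klk1b27 read 2593, 2727 and 2172 on the knockout arrays, against 3057, 3028 and 116780 on the wild type arrays, so both genes were highest on wild type replicate 3. On wild type replicates 1 and 2, Zg16 still read far above all knockout arrays, while Klk1b27 read close to them.

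The size of the Lasp1 difference depended on wild type replicate 3. Without it, the log2 difference was -1.51 for ILMN_2879746 (35.1% of wild type, limma adjusted p = 0.0989) and -2.0001 for ILMN_2879745 (25.0% of wild type), and ILMN_2879745 was then called (limma adjusted p = 0.0317, when 0.00442% of tested probes were called lower). Array weights called both probes (limma adjusted p = 0.00222 for each), in a fit that called 0.954% of probes as lower. That fit weighted wild type replicate 2 at 38.8, the other 5 arrays being at 1.60 or less. The wild type level in it thus rests mostly on 1 array, and the estimate of the weights stopped before it converged. Cyclic loess normalization called ILMN_2879746 alone (-1.48, limma adjusted p = 0.0491), again when 0.00442% were called lower. A fit blocked on the 2 sets of title numbers gave differences of -1.23 and -1.43 (limma adjusted p = 0.399 for each). Over 20 fits, the adjusted p ranged from 0.00222, in the fit with array weights, to 0.9999 for each probe. The remaining share of the wild type level ranged from 35.1% to 45.6% for ILMN_2879746 and from 24.7% to 40.7% for ILMN_2879745.

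**Figure D2:**
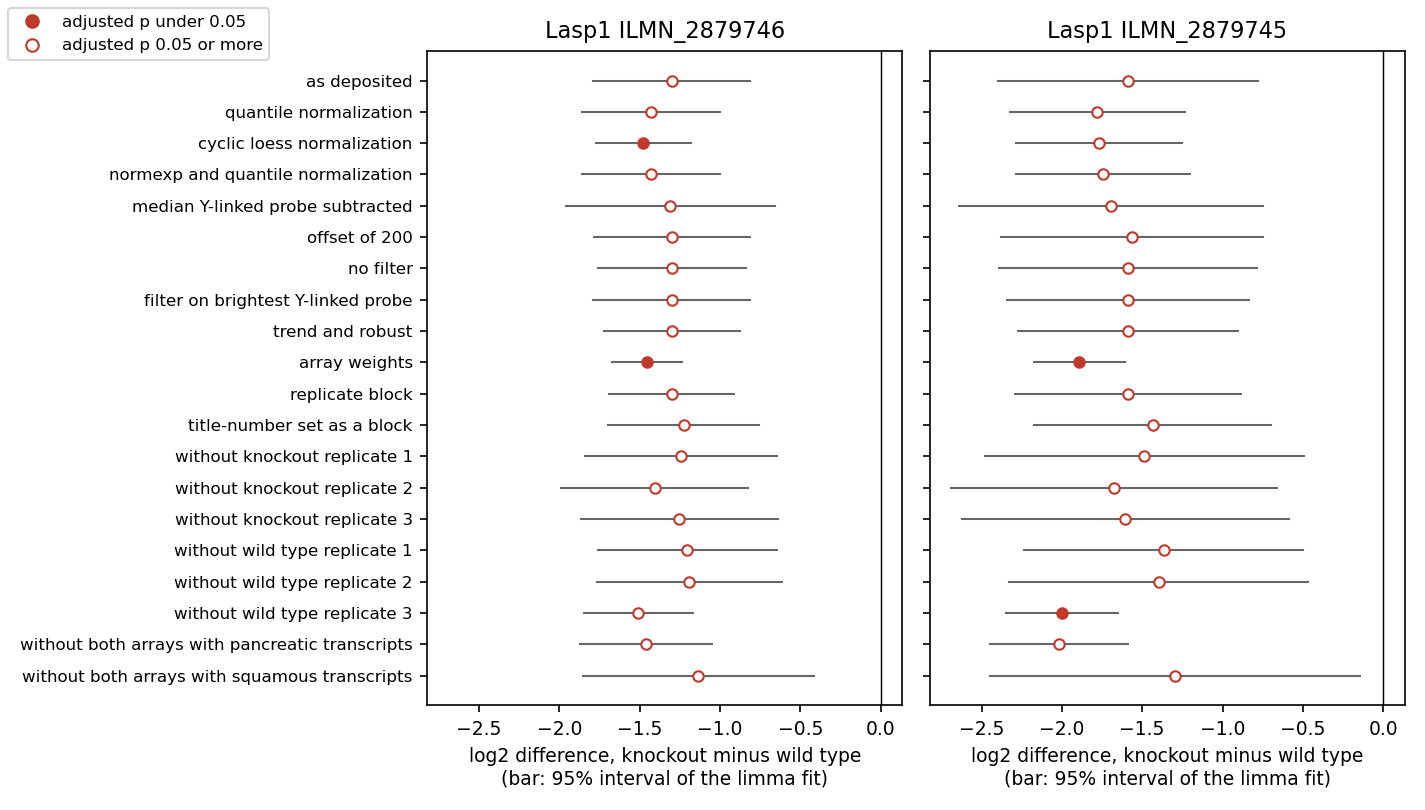
Log2 difference, knockout minus wild type, of the 2 bright Lasp1 probes under each processing choice, with the 95% interval of the limma fit. Filled points have an adjusted p under 0.05. All points lie below 0, between -1.51 and -1.13 for ILMN_2879746 and between -2.02 and -1.30 for ILMN_2879745.

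The genotype difference was also taken within each set of title numbers, where 1 array stands alone for the knockout in the set 1 to 3 and 1 array alone for wild type in the set 4 to 6. For ILMN_2879745 it was -2.20 on the log2 scale within the arrays numbered 1 to 3 (21.7% of wild type) and -0.66 within those numbered 4 to 6 (63.2% of wild type). The interaction was 1.54 (95% interval 1.02 to 2.07, limma adjusted p = 0.037), where 0.605% of the tested probes had a called interaction. The probe's own spread in that test comes from the other 2 knockout and the other 2 wild type arrays alone. The limma fit moderates it toward the spread of all tested probes, and each lone array is assumed to vary alike. For ILMN_2879746 the differences were -1.62 and -0.83, with an interaction of 0.80 that did not pass (limma adjusted p = 0.2). The lone wild type array, wild type replicate 3, read 13074 against 31441 and 30113 on the other wild type arrays, and the interaction restates that reading in part. Both arrays with raised pancreatic sums, knockout replicate 3 and wild type replicate 3, are in the set 4 to 6, and both with raised squamous sums, knockout replicate 1 and wild type replicate 2, are in the set 1 to 3. A difference between the sets and the lone arrays' own readings cannot be told apart.

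The ratio of ILMN_2879746 to ILMN_2879745 within an array was 13.3, 12.8 and 11.4 on knockout replicates 1 to 3, against 8.62, 9.13 and 13.6 on wild type replicates 1 to 3. The size of such a ratio depends on the probes, and only its difference between arrays bears on Lasp1. The ratio of wild type replicate 3 thus lay above all knockout arrays. The difference between the effects on the 2 probes was 0.29 on the log2 scale and did not exceed the spread (exact two-sided permutation p = 0.4, 1 pair of probes compared). Without wild type replicate 3 it was 0.49 (exact permutation p = 0.1, the smallest possible). After quantile normalization the ratios were 13.9, 12.7 and 11.4 on the knockout arrays, against 9.36, 9.71 and 10.7 on the wild type arrays. The groups then did not overlap, with a log2 difference of 0.35 and an exact two-sided permutation p of 0.1, the smallest possible. After cyclic loess normalization the ratios were 13.8, 12.8 and 11.3 on the knockout arrays, against 9.28, 9.17 and 12.7 on the wild type arrays. There the groups overlapped, with a log2 difference of 0.29 (exact two-sided permutation p = 0.2). Whether the 2 probes lost signal in equal proportion thus depended on the scaling and on wild type replicate 3.

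**Figure D3:**
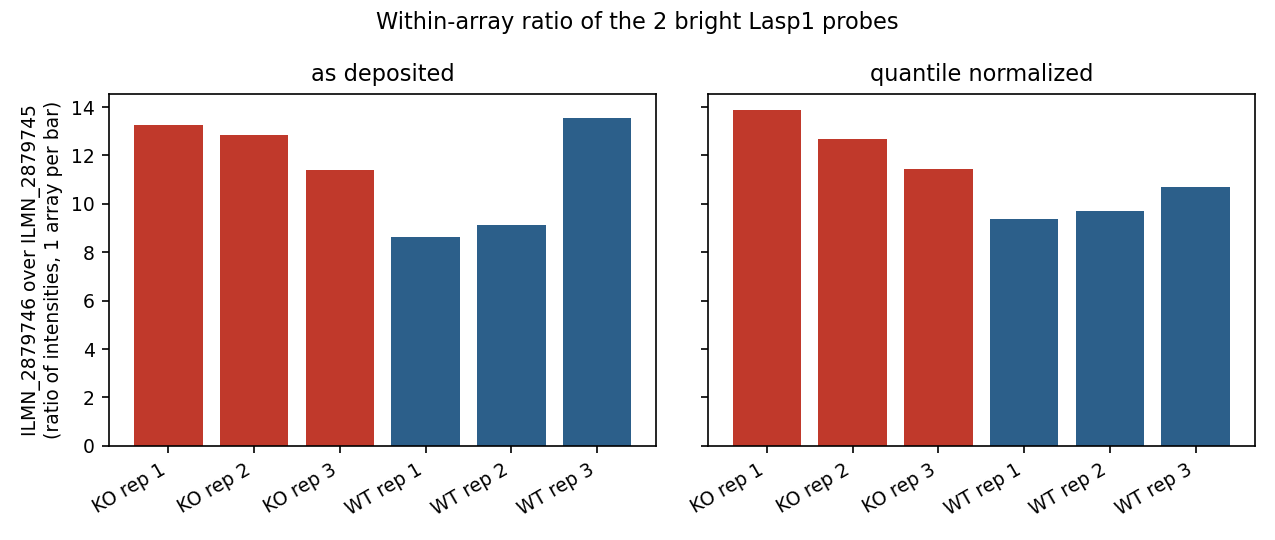
Ratio of ILMN_2879746 to ILMN_2879745 on each array, in the deposited values (left panel) and after quantile normalization (right panel), 1 bar per array with the axis from 0. As deposited, wild type replicate 3 (13.6) stands with the knockout arrays. After quantile normalization, all 3 knockout arrays (11.4 to 13.9) lie above all 3 wild type arrays (9.36 to 10.7).

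Nebl, the closest relative of Lasp1, read around background in both genotypes. Its probe ILMN_1235810 read 1132, 969 and 1034 on knockout replicates 1 to 3, against 920, 1043 and 992 on wild type replicates 1 to 3. It passed the brightest Y-linked probe only on knockout replicate 1, and the groups overlapped. The log2 difference of the readings was 0.08 (95% interval -0.20 to 0.37, limma adjusted p = 0.994). Its other probe, ILMN_1218944, read 884, 842 and 830 on the knockout arrays, against 808, 752 and 834 on the wild type arrays, below the brightest Y-linked probe on every array. The first Nebl probe is annotated to a cDNA clone and the second to a RefSeq transcript, and the sources used here do not say which protein form each probe reads.

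Neb, the nebulin gene of skeletal muscle, read at background. Its probe ILMN_1235161 read 683, 827 and 817 on knockout replicates 1 to 3, against 780, 746 and 798 on wild type replicates 1 to 3. All 6 readings lay below the brightest Y-linked probe and below the array median, and the groups overlapped.

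Nrap was at the edge of background on 1 of its 3 probes. ILMN_1235070 read 1210, 1332 and 1084 on knockout replicates 1 to 3, against 1136, 1129 and 1116 on wild type replicates 1 to 3. The probe passed the brightest Y-linked probe on 2 knockout arrays and 1 wild type array, and knockout replicate 3 lay below all wild type arrays. The log2 difference was 0.10 (95% interval -0.19 to 0.39, limma adjusted p = 0.994). The other 2 Nrap probes stayed below the brightest Y-linked probe throughout. ILMN_3138732 read 841, 886 and 1077 on the knockout arrays, against 848, 932 and 876 on the wild type arrays. ILMN_3061287 read 794, 808 and 862 on the knockout arrays, against 736, 760 and 834 on the wild type arrays.

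Across the 6 probes of the relatives, the 36 readings ran from 683 to 1332, and 4 of them exceeded the brightest Y-linked probe of their own array. Mean readings in the knockout were 100% to 107% of those in wild type for these probes, and in each of the 6 the groups overlapped. On the same deposited scale, the median log2 difference was 0.10 over all tested probes and 0.03 over all probes with no filter. Groups that did not overlap with the knockout higher were found for 6.17% of all tested probes. None of the 6 probes of the relatives was called in any fit that tested it. The lowest adjusted p was 0.317, for ILMN_1235070 of Nrap with array weights. These intervals bound the probe reading, most of which is background, and not the transcript, so a rise of any relative that stayed under background was not detectable on these arrays.

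Genes of striated muscle, in which Nebl, Neb and Nrap are best known, were mostly at background too. Of 12 skeletal muscle genes on the array, 9 never passed the brightest Y-linked probe, the skeletal actin Acta1 and the creatine kinase Ckm among them. The 3 that passed the filter were the fast troponin I gene Tnni2, the myosin light chain gene Mylpf and the calcium pump gene Atp2a1. Tnni2 read 27620, 43877 and 33652 on the knockout arrays, against 29499, 30023 and 17206 on the wild type arrays. The log2 difference was 0.20 for Mylpf and -0.04 for Atp2a1. Mylpf alone had groups that did not overlap, beside 6.17% of all tested probes with the knockout higher. Of 8 cardiac genes, 4 never passed the brightest Y-linked probe. The 2 kept by the filter were Tnni3, the cardiac troponin I gene (0.09), and Actc1, the cardiac actin gene (-0.04). The defining markers of the mucosa were bright on every array: Atp4a and Atp4b, the proton pump subunits of parietal cells, read between 438485 and 539091. Of 9 parietal genes, 8 lay above the brightest Y-linked probe on all 6 arrays, and Kcnq1, a potassium channel gene, on none. The parietal list had a median log2 difference of 0.03, beside 0.10 over all probes tested, and none of its members was called. That value was the one of Cblif, a gene that the chief cell list also holds. The parietal median was -0.14 after cyclic loess normalization (2 of 9 positive) and -0.10 without wild type replicate 3 (3 of 8), so its sign turned. The parietal sums, Cblif included, ran from 1701001 to 1933445 on the knockout arrays. On the wild type arrays they ran from 1676995 to 1783233, so the ranges overlapped. Whether the share of parietal cells differed between the samples was not tested.

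Among genes whose proteins are known partners of the family, 12 of 16 on the array passed the filter and none was called in either direction by limma (none had an unadjusted p under 0.05). The list median was 0.20 on the log2 scale as deposited, beside 0.10 over all probes tested, and 10 of 12 differences were positive. After quantile normalization the median was 0.02 with 7 of 12 positive, and without wild type replicate 3 it was 0.01 with 7 of 12 positive. Over all probes tested it was 0.003 and -0.004 in these 2 fits. The 4 of smallest p were Palld, the actin-bundling protein palladin (0.39), Actn4 and Actn1, the alpha-actinins of non-muscle cells (0.52 and 0.18), and Lpp, a LIM protein of the zyxin family (0.42). All 4 had overlapping groups. Palld read 15941, 20512 and 16578 on knockout replicates 1 to 3, against 16953, 16006 and 8789 on wild type replicates 1 to 3, so its lowest array was wild type replicate 3. That array also had the smallest share of probes above the brightest Y-linked probe, 35.8% against 39.4% to 45.8% on the other arrays. The lowest reading fell on wild type replicate 3 for 10 of the 12 partner genes, a count not made over all tested probes. It was also the lowest wild type array for both bright Lasp1 probes. Lasp1 was also taken relative to the mean of the 12 partner genes on the same array, a scale chosen after the data were seen. ILMN_2879746 then stood at -1.77, -1.16 and -1.38 log2 units from the wild type mean on knockout replicates 1 to 3. On wild type replicates 1 to 3 it stood at -0.12, 0.02 and 0.10. ILMN_2879745 stood at -2.14, -1.49 and -1.54 on the knockout arrays, against 0.12, 0.19 and -0.31 on the wild type arrays. Wild type replicate 3 thus stayed the lowest wild type array for ILMN_2879745. On that scale the difference was -1.44 for ILMN_2879746 and -1.72 for ILMN_2879745 (exact two-sided permutation p = 0.1 for each, the smallest possible).

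None of the thin filament and Z disc genes, the structures that nebulin and nebulette belong to, was called. Of 28 on the array, 15 passed the filter, and 13 never passed the brightest Y-linked probe. In the limma fit none had an unadjusted p under 0.05. The list median was 0.24 as deposited (15 of 15 positive), 0.11 after quantile normalization (14 of 15) and 0.08 without wild type replicate 3 (11 of 15). The median over all probes tested was 0.10, 0.003 and -0.004 in the same order. Actn2, the alpha-actinin of muscle Z discs, had the smallest p (0.29, limma adjusted p = 0.994). It read 2320, 2035 and 2119 on the knockout arrays, against 1778, 1926 and 1582 on the wild type arrays. Of the 15 tested members it was the 1 whose groups did not overlap, beside 6.17% of all tested probes with the knockout higher. Tpm3, a tropomyosin (0.40), Fhl2, a LIM-only protein (0.49), and Vcl, the focal adhesion protein vinculin (0.29), followed. The smooth muscle list, of which 8 of 9 members passed the filter, had a median of 0.58 with 8 of 8 positive (0.31 without wild type replicate 3, again 8 of 8), and its sum was highest on knockout replicate 1, as given above. The part of these other transcripts in the thin filament values was not tested.

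**Figure D4:**
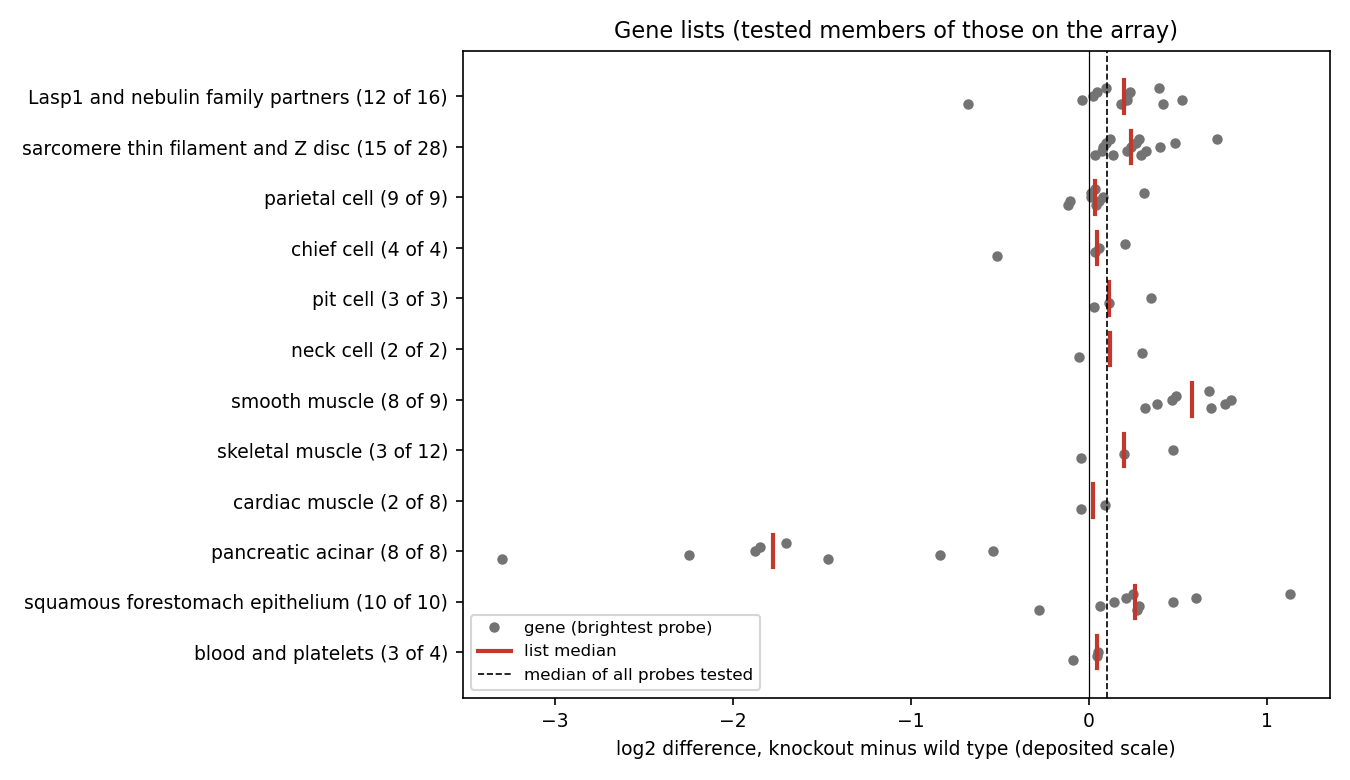
Log2 difference, knockout minus wild type, of each tested gene in the partner, thin filament and marker lists, 1 grey point per gene at its brightest probe, with the list median as a red bar. The dashed line is the median over all probes tested (0.10). Partner genes lie between -0.68 and 0.52 and thin filament genes between 0.03 and 0.72, and the pancreatic acinar list (median -1.77) lies lowest.

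The other marker lists were read for the cells and tissues present. Their median log2 differences were 0.04 for chief cells (4 of 4 genes tested), 0.11 for pit cells (3 of 3), 0.12 for neck cells (2 of 2) and 0.05 for blood and platelets (3 of 4 on the array). Without wild type replicate 3 these medians were 0.11, 0.05, -0.07 and -0.12, in the same order, and after cyclic loess normalization they were -0.12, -0.05, -0.05 and -0.06. The medians were -1.77 for the pancreatic acinar list (0.81 without wild type replicate 3) and 0.26 for the squamous list (-0.28 without it). For the skeletal and cardiac lists the medians were 0.20 and 0.02, and without wild type replicate 3 they were 0.20 and -0.10. None of their members was called by limma. At an unadjusted p under 0.05 were Gkn1, a gastrokine of pit cells (0.35), and Zg16.

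The genes whose array profile was most like that of ILMN_2879746 were then ranked by the mean absolute difference between centred log2 profiles over the 6 arrays. The genotype difference is part of these profiles, so a low distance includes a like difference between groups. The nearest of 22639 probes was ILMN_1238363, which has no gene name in the annotation used, at 0.20 log2 units. It read 1685, 1465 and 1331 on the knockout arrays, against 3015, 3490 and 2171 on the wild type arrays. ILMN_2879745, the second Lasp1 probe, came next at 0.23, while the median distance over all probes was 0.70. The 5 nearest named genes were Rapgefl1, an exchange factor-like gene (0.27), 2210409E12Rik (0.32), Unc45b, a myosin chaperone of muscle (0.40), Rsad1 (0.41) and Gstm2, a glutathione transferase (0.42). Of these 5 genes, 4 lie on chromosome 11, which also carries Lasp1, and Gstm2 on chromosome 3. Chromosome 11 held 8.34% of the 11865 named genes compared.

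Rapgefl1 read 14033, 19224 and 12130 on knockout replicates 1 to 3, against 25904, 30480 and 20377 on wild type replicates 1 to 3, with separated groups and a log2 difference of -0.77. Its other probe differed by 0.24 in the opposite direction, so the 2 probes disagree. 2210409E12Rik read 1815, 1659 and 1806 on the knockout arrays, against 3362, 3239 and 1970 on the wild type arrays (-0.66, groups not overlapping). Unc45b (-0.74) and Rsad1 (-0.48) had overlapping groups, and the second Rsad1 probe differed by -0.22. The other Unc45b probe was below the brightest Y-linked probe on all arrays, and its readings differed by 0.18, in the opposite direction. Gstm2 differed by -0.47 on the nearest probe, with separated groups, and by -0.15 and -0.12 on its other 2 probes. Between Lasp1 and Rapgefl1 the gene table lists 33 protein-coding genes, between Lasp1 and Rsad1 85, and between Lasp1 and Unc45b 206. No such count was made for 2210409E12Rik, which is not among the protein-coding genes counted. No gene in this paragraph was called (limma adjusted p = 0.994 for each probe ranked above).

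**Figure D5:**
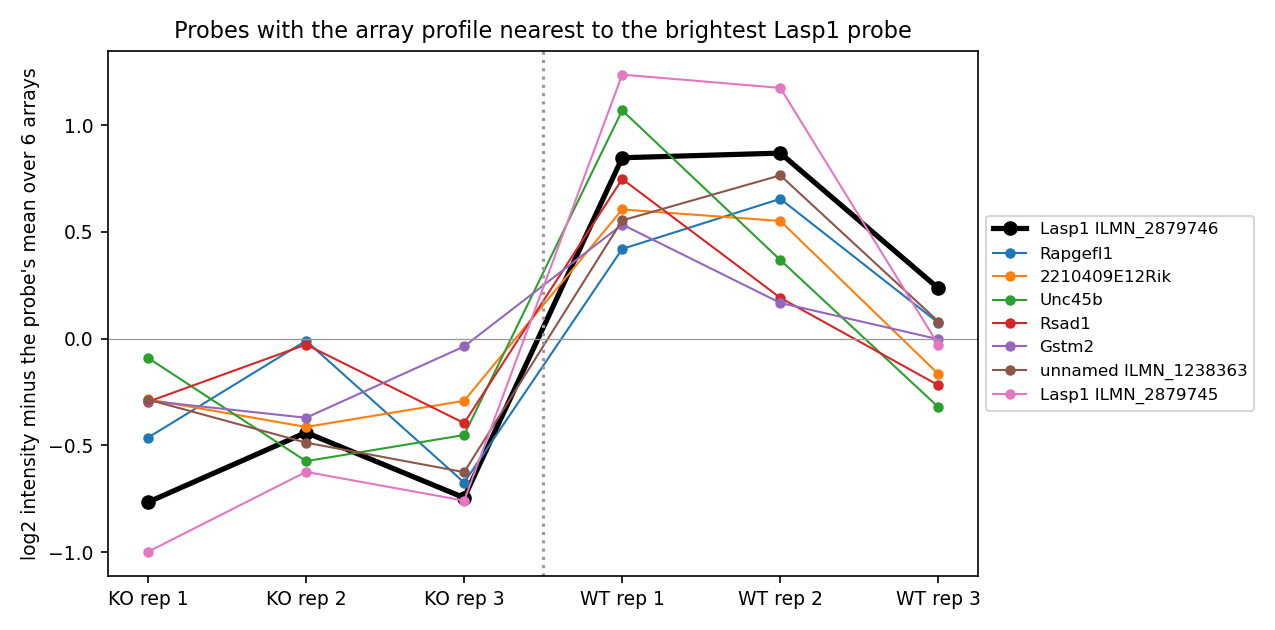
Log2 intensity minus each probe's own mean, on the 3 knockout arrays (left) and the 3 wild type arrays (right), for ILMN_2879746 of Lasp1 (thick black line) and the 7 probes discussed as nearest to it. Most lines are low on the knockout arrays and high on wild type replicates 1 and 2, with wild type replicate 3 in between.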

How the data were processed

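Total RNA was amplified to biotinylated cRNA (Ambion MessageAmp), per the labels' protocols. The deposited values are linear probe intensities; every array has a median of 1000, and the lowest probe of each array lies between 541.9 and 572.4, so that no value is near 0. No background step, scaling method, scanner, software or genome build is given in the sources used here. Probe genes came from the platform annotation (34885 probes with 1 symbol, 18 with several, 10378 with none), of which 34807 matched the RefSeq gene table of GRCm38.p6.

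Intensities were floored at 16 and log2 transformed. The filter on dim probes kept the 22640 whose mean log2 value exceeded the median probe's, among them 5 of the 9 member probes. The other 4 were described by their readings and by the fit with no filter. Groups were compared with limma 3.58.1 (R 4.3.3; lmFit, eBayes, two-sided). A call was an adjusted p under 0.05 (Benjamini-Hochberg, across the 22640 probes). The fit was first tested on simulated data. Single values had an exact permutation test. Figures were drawn with matplotlib 3.10.9.

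Genes were named by rule: all member probes, and the 5 genes nearest in profile to the brightest Lasp1 probe. Of each list the rule was to name the tested members when 6 or fewer and otherwise the 4 of smallest p. The text follows this for the partner, thin filament, skeletal and cardiac lists only. It gives the other marker lists mainly by medians and counts, with defining markers. Zg16, Klk1b27, Gkn1 and ILMN_1238363 were singled out after their values were seen. Genes of a list are given by their brightest probe. Alternatives were other scalings, background steps, filters, variance models, array weights, blocks, the mean of a gene's probes and left-out arrays. The members, lists and tests were chosen with earlier results of these data known.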

Additional observations from a re-analysis of the deposited data

Results flagged for a closer look

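The genotype difference of the second bright Lasp1 probe, ILMN_2879745, was -2.20 on the log2 scale within the arrays numbered 1 to 3 in their titles and -0.66 within those numbered 4 to 6. The difference between these values, an interaction in limma over all kept probes, gave 1.54 (adjusted p = 0.037), with 137 of 22640 probes called. Each set has 1 array of one genotype, so the probe's own spread comes from the other arrays, moderated by limma toward that of all kept probes. The value rests on the low reading of wild type replicate 3 (13074, against 31441 and 30113) and on knockout replicate 1. The other bright Lasp1 probe had an interaction of 0.80 (adjusted p = 0.2).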

How the results depend on the processing

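Both bright Lasp1 probes were lower in the knockout in all 20 fits. Array weights called both (ILMN_2879745 at -1.89, ILMN_2879746 at -1.45), and cyclic loess normalization called ILMN_2879746 at -1.48. Leaving out 1 array at a time gave -2.0001 to -1.37 for ILMN_2879745, which was called without wild type replicate 3 only, and -1.51 to -1.19 for ILMN_2879746. Array weights turned the sign of 2 dim probes, to -0.043 for ILMN_1235810 of Nebl and to 0.13 for ILMN_2596851 of Lasp1. The estimate of the array weights stopped before it converged. The difference between the effects on the 2 bright probes was 0.56 without both arrays with pancreatic transcripts, against 0.29 with all arrays. The number of probes called was 2 on all arrays, 1 after the median Y-linked probe was subtracted, 1816 with array weights, 0 without both arrays with pancreatic transcripts, 0 without both arrays with squamous transcripts, and 0 to 3 on leaving out 1 array, with the 3 without wild type replicate 3. The cause was not tested for these changes. Same-numbered replicates deviated from their group means with correlations across probes of 0.04, -0.30 and 0.53, and not every sample correlated best with its own number, so the numbers were not taken as pairs. With the replicate block 0 probes were called (753 at an unadjusted p under 0.05), and the Lasp1 differences were -1.30 and -1.59. Background limits every statement on Nebl, Neb and Nrap: their readings were at or near the Y-linked probes, so small transcript amounts could not be seen.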
